A study of Mus musculus with 12 samples.

Results

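Vdr, Trpv6, S100g, Cyp24a1, Atp2b1 and Casr, genes that carry or control the uptake of calcium across the gut wall, were followed through ileal and colonic mucosa of mice with and without Slc39a8 in the intestinal epithelium. They were taken by name, and all 6 were found among 53715 genes with an Ensembl identifier, matched through the GENCODE M21 annotation. RNA was sequenced from 12 libraries in 4 groups of 3, an ileal and a colonic group for each genotype. The mice were 8-week-old C57BL/6J males. Control mice carry the genotype label Slc39a8-fl/fl, although the methods of the study say that floxed, wild-type and Cre animals all served as controls, and the KO mice (Slc39a8-IEC KO) are labelled Slc39a8-fl/fl:Villin-Cre. The Villin promoter drives Cre in epithelial cells of the intestine, so muscle, immune and nerve cells of the mucosa keep the gene. The protocol names 1 mouse for each RNA sample, and whether an ileal and a colonic library share a mouse is not given in the labels. The comparisons between tissues therefore take the libraries as independent.

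Calcium crosses an enterocyte in 3 steps. The channel TRPV6 lets it in at the brush border, the small binding protein calbindin-D9k, the product of S100g, carries it through the cytosol, and the plasma membrane calcium pump PMCA1, the product of Atp2b1, exports it at the basolateral side. The vitamin D receptor, encoded by Vdr, is a nuclear receptor that binds calcitriol and pairs with a retinoid X receptor on DNA. S100g and Trpv6 are among its known target genes, and so is Cyp24a1, which encodes the enzyme that inactivates calcitriol. Casr encodes the receptor that senses calcium outside the cell. The study asked what the loss of Slc39a8, a manganese and zinc importer, does to the intestine. The design also allows each gene to be set between ileum and colon.

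The libraries held 16749138 to 27903083 expected counts, estimates of reads per gene. Values are given as CPM (counts per 1000000 counts) scaled with edgeR's TMM factors, and groups as mean ± SD. Slc39a8 did not pass the threshold in edgeR (adjusted p = 0.382 over both tissues) but was at 48.4% of the control mean in ileal and 43.6% in colonic KO libraries, with no overlap of the genotypes in either tissue (two-sided exact permutation p = 0.005, the smallest possible). The study itself reported Slc39a8 as lower in KO mice in these data with DESeq2, ileum and colon combined. By qPCR in older mice it reported a stronger loss in both tissues. The ileal markers Fabp6 (3362 to 7110 CPM in ileum against 5.76 to 26.8 CPM in colon) and Slc10a2 (1883 to 3282 against 547 to 916 CPM) were higher in ileum, as labelled. The colonocyte genes Slc26a3 and Car4 had higher levels in colon, while Hoxb13, a gene of the distal colon, held next to no counts in any library. Ileal control replicate 3 and ileal KO replicate 1 contained few muscle transcripts, with 22.5 and 13.0 CPM summed over 4 muscle markers against 1315 to 2559 CPM in the other 10 libraries. Ileal KO replicate 2 was the only ileal library with more than 1 CPM of the colonocyte water channel Aqp8, at 67.3 CPM. Summed over the 4 colonocyte markers it was at 462 CPM, within the 228 to 575 CPM of ileal control libraries.

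S100g, the cytosolic calcium carrier, showed the largest tissue difference of the 3 genes that could be tested, and was higher in colon. In ileal control libraries it was at 18.3, 10.8 and 13.4 CPM, and in ileal KO libraries at 11.1, 41.1 and 7.63 CPM. In colonic control libraries it reached 1264, 800 and 280 CPM, and in colonic KO libraries 330, 653 and 274 CPM. The lowest colonic library was thus several times above the highest ileal library, and in each tissue the ranges of the genotypes overlapped. The ratio of the mean CPM of colon to that of ileum was 55.1 in control and 21.0 in KO mice.

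S100g (ENSMUSG00000040808.4) lies on the minus strand of chromosome X, from 162961992 to 162964599 in GRCm38 (mm10), and its single transcript of 480 bases is read within Ctps2, a gene of the opposite strand. The sources used here do not state whether strand was used in counting, so reads of the 2 genes could be mixed. Ctps2 itself was at 10.2 to 15.97 CPM in ileum and 14.4 to 18.9 CPM in colon, far below the colonic level of S100g and about as high as its ileal level. RefSeq promoter windows of 300 bases, from 250 before to 50 after a start site (build GRCm38.p6), were found for 5 of the 6 genes. They are shown up to the start site for S100g and Vdr, the 2 genes whose levels were higher in colon, 5′ to 3′ on the strand of the gene. Capitals mark hexamers of the type that nuclear receptors bind, on either strand, namely AGGTCA, the variant form GGGTCA, the variant form AGTTCA and lastly the variant form GGTTCA.
S100g, chrX:162964600-162964849, minus strand: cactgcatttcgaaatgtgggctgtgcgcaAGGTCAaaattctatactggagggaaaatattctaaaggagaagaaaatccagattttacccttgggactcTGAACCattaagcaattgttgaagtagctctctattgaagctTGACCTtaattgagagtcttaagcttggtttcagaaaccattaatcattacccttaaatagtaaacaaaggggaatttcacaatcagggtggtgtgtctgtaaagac
Vdr, chr15:97908297-97908546, minus strand: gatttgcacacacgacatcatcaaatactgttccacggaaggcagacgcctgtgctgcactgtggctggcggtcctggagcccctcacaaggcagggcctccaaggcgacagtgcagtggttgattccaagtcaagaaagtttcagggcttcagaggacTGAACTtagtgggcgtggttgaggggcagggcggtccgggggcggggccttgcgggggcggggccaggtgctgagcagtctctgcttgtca

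The S100g window held 3 such hexamers, AGGTCA on each strand, beginning 220 and 107 bases before the start, and GGTTCA on the reverse strand. It also held TATAAA, the TATA box hexamer, which began at the first base of the annotated start. The Vdr window, which opens at a start site inside the annotated gene, had 1 match, AGTTCA on the reverse strand, 91 bases before the start. The Trpv6 window had 2 matches to AGGTCA, and those of Casr and Atp2b1 (2 windows) had none. Of all 32851 promoter windows in the table, 43.7% held at least 1 of the 4 hexamers, 16.3% held AGGTCA and 13.6% held TATAAA, so these matches are common. A pair of the hexamers in direct repeat with a spacer of 3 bases (DR3, the classical vitamin D response element) occurred in 0.0396% of the windows and in none of the 6 windows of these genes. TTTATG, a CDX2 site, occurred in 11.9% of all windows and in none of the 6. GC content was 41.0% in the S100g window, 61.3% in that of Vdr and 79.3% in both windows of Atp2b1, against a median of 52.7%. A match is only a run of letters, and a binding site can lie outside such a window.

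**Figure D1:**
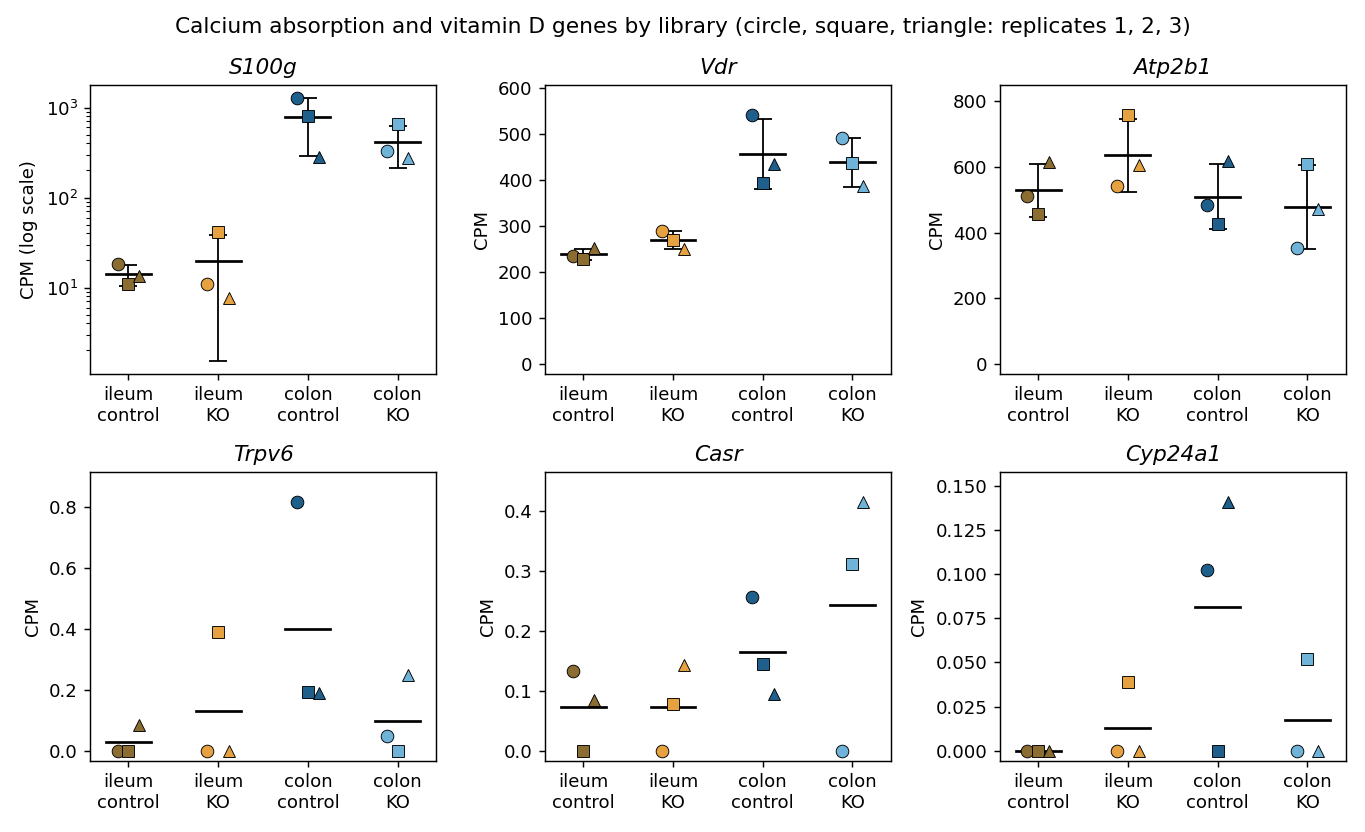
CPM of the 6 genes in each of the 12 libraries, by tissue and genotype. Points are libraries and the horizontal line is the group mean. For S100g (log axis), Vdr and Atp2b1 (linear axes from 0) the error bar is the SD of 3 libraries. S100g and Vdr are higher in every colonic than in every ileal library, Atp2b1 overlaps between all groups, and the other 3 genes stay below 1 CPM.

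Between the tissues, the fitted log2 difference of S100g was 5.79 (standard error 0.78) in control mice and 4.39 (standard error 0.73) in KO mice, with adjusted p = 2.2e-04 and 9.6e-04 in edgeR's quasi-likelihood test. The 95% intervals were 4.08 to 7.49 and 2.79 to 5.98. The KO value rests in part on ileal KO replicate 2, the library with Aqp8, and without it the log2 fold change in KO mice was 5.48. The difference between the genotypes in this tissue effect was -1.40 (standard error 0.91, 95% interval -3.39 to 0.59, adjusted p = 1.0 in edgeR) and was not resolved. Under an exact permutation test that exchanged tissues within each genotype, the difference of 5.07 in mean log2(CPM + 0.5) had p = 0.005, the smallest that 400 arrangements allow. Within 1 genotype, 3 libraries against 3 allow no p below 0.1. In all, 36 such tests were made on the 6 genes.

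Vdr (ENSMUSG00000022479.15, chromosome 15, 97854425 to 97910630, minus strand) was at 234, 228 and 252 CPM in the ileum of control and 288, 269 and 249 CPM in the ileum of KO mice. In colon it was at 541, 392 and 434 CPM in control and 492, 436 and 386 CPM in KO libraries. Every colonic library was above every ileal library, and the genotypes overlapped in both tissues. Vdr RNA was 1.92 times as high in colon as in ileum in control mice and 1.63 times in KO mice by mean CPM. The fitted log2 difference in edgeR was 0.94 (standard error 0.15) in control mice and 0.71 (standard error 0.15) in KO mice, with adjusted p = 7.3e-04 and 0.0045. The difference of these effects, -0.23, was close to its standard error of 0.21 and was not called. The exact permutation p over both genotypes was 0.005, again the smallest possible. Without the 2 ileal libraries low in muscle transcripts the log2 fold changes of Vdr were 0.96 and 0.77.

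Of all 16558 genes tested, 35.9% were called between the tissues in control mice and 37.1% in KO mice at an adjusted p under 0.1, and 16.2% and 17.1% were called as higher in colon. Of the 6 genes, 3 passed the filter on low counts, and 2 of these 3, S100g and Vdr, were called higher in colon in each genotype. The CPM ranges of the tissues did not overlap for the same 2 genes, where 40.7% of all tested genes were separated in this way in control and 50.4% in KO mice. A call between these tissues is therefore common. In these bulk samples a smaller number of cells of a type and less RNA per cell cannot be told apart.

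The level of epithelial marker RNA also moved with tissue. Of 7 epithelial markers, 6 were called lower in colon in each genotype (median log2 fold change -0.69 in control and -0.83 in KO mice). The other, Elf3, was not called, with control and KO means of 268 and 279 CPM in ileum and 320 and 383 CPM in colon. Of all genes, 35.9% were called in either direction in control and 37.1% in KO mice. The summed level of the 7 markers ran from 13030 to 16270 CPM in ileum and from 7869 to 8942 CPM in colon. With libraries scaled to these markers, the log2 fold change of S100g was 6.46 in control and 5.12 in KO mice, and that of Vdr 1.61 and 1.41. This scaling moved the median of all genes from 0.02 to 0.69 in control and from 0.01 to 0.72 in KO mice. Relative to the median gene, S100g was at 5.77 and 4.39 and Vdr at 0.92 and 0.69 under it. The part of epithelial content in the results was not tested.

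Atp2b1 (ENSMUSG00000019943.10, chromosome 10, 98914406 to 99026143, plus strand), the export pump, was at 512, 458 and 616 CPM in ileal control and 541, 759 and 607 CPM in ileal KO libraries. In colonic control libraries it was at 483, 426 and 618 CPM and in colonic KO libraries at 353, 608 and 473 CPM. All 4 groups overlapped. The log2 fold change of colon over ileum was -0.05 (standard error 0.22, 95% interval -0.55 to 0.44, adjusted p = 0.879 in edgeR) in control mice and -0.41 (standard error 0.22, 95% interval -0.90 to 0.08, adjusted p = 0.197) in KO mice. Neither was called, and the intervals leave room for differences in both directions in control mice. The outcome depends on the scaling. With epithelial markers as the scale Atp2b1 was called higher in colon in control mice (log2 fold change 0.61, adjusted p = 0.054), which is -0.08 relative to the median gene, and the value in KO mice turned to 0.32. Without colonic KO replicate 2 it was called lower in colon in KO mice (log2 fold change -0.62, adjusted p = 0.094).

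**Figure D2:**
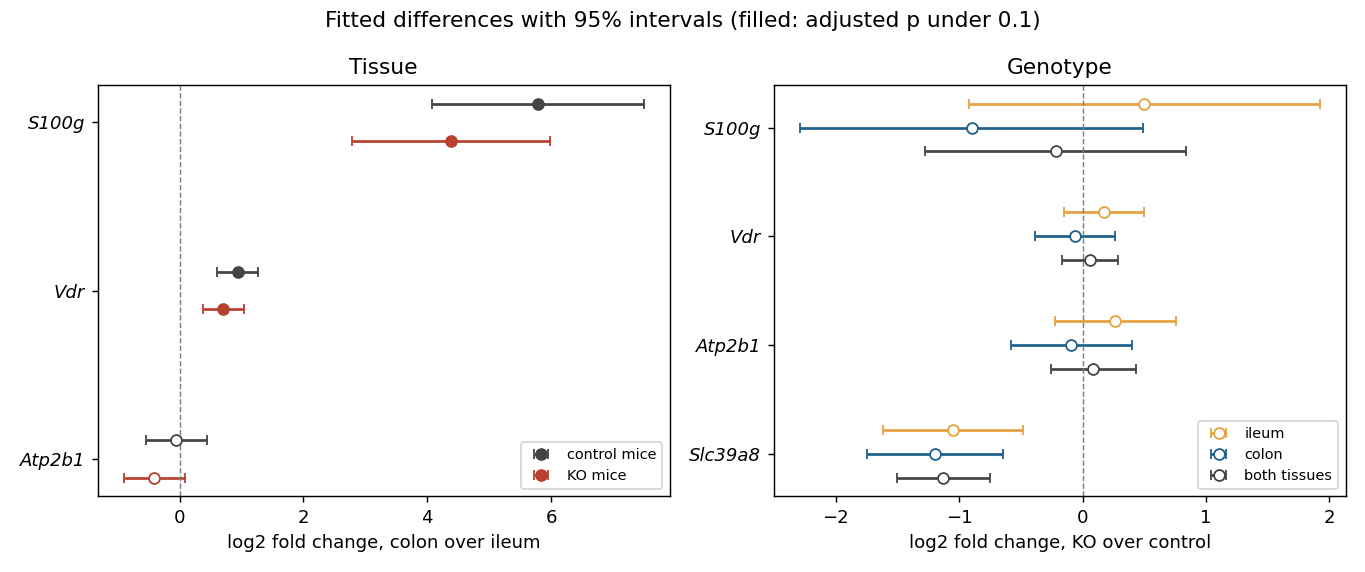
Fitted log2 fold changes from edgeR with 95% intervals for the 3 tested genes, for colon over ileum in each genotype (left) and for KO over control in each tissue and over both (right, with the targeted gene Slc39a8). Filled points have an adjusted p under 0.1. S100g lies at 5.79 and 4.39 and Vdr at 0.94 and 0.71 for the tissue difference, and no genotype difference is filled.

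**Figure D3:**
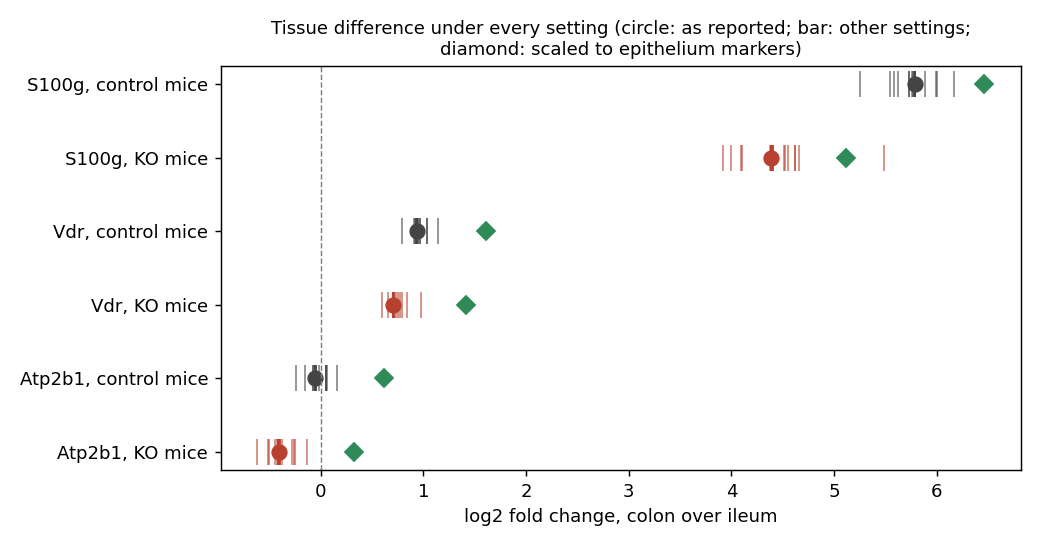
Log2 fold change of colon over ileum for S100g, Vdr and Atp2b1 in control and KO mice under every setting tried. Circles are the reported values, vertical bars the other settings and diamonds the scaling to epithelial markers. S100g runs from 3.91 to 6.46 and Vdr from 0.60 to 1.61, both always above 0, and Atp2b1 crosses 0 in both genotypes.

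The entry channel Trpv6 (ENSMUSG00000029868.13, chromosome 6, 41620624 to 41636405, minus strand) was near the limit of detection. Ileal control libraries held 0, 0 and 2 counts, ileal KO libraries 0, 10 and 0, colonic control libraries 16, 4 and 4, and colonic KO libraries 1, 0 and 6. The ileal library with 10 counts was KO replicate 2, which also held the highest ileal S100g and the Aqp8 transcripts, and the colonic library with 16 counts was control replicate 1, which held the highest S100g of all. In control mice the tissues did not overlap, and in KO mice they did. In a fit without the filter on low counts, Trpv6 had adjusted p = 0.166 between the tissues in control mice and 0.924 in KO mice in edgeR, and 0.181 and 0.907 in DESeq2.

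Cyp24a1 (ENSMUSG00000038567.5, chromosome 2, 170482708 to 170497145, minus strand), whose transcription calcitriol is known to raise strongly, was not detected in ileal control libraries, with 0 counts in each. A count of 0 allows up to 3 counts, or 0.1275 to 0.1997 CPM per library, for counting error only. Ileal KO libraries held 0, 1 and 0 counts, colonic control libraries 2, 0 and 3, and colonic KO libraries 0, 1 and 0. The gene overlaps Pfdn4 of the opposite strand, which was at 6.62 to 19.97 CPM over all libraries. Counts of this size show no difference between groups at this depth.

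Casr (ENSMUSG00000051980.13, chromosome 16, 36493696 to 36562141, minus strand), the calcium sensor, had 2, 0 and 2 counts in ileal control and 0, 2 and 3 in ileal KO libraries. Colonic control libraries held 5, 3 and 2 counts and colonic KO libraries 0, 6 and 10. The tissue groups overlapped in both genotypes, and adjusted p in the unfiltered edgeR fit was 0.588 in control and 0.426 in KO mice. A difference in Casr between ileum and colon was not detectable at this depth.

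Levels of different genes can be compared only per length, here as CPM per kilobase of all exons of the gene joined. In colonic control libraries S100g was at 1628 ± 1026 CPM per kilobase (SD, n = 3), Vdr at 80.7 ± 13.6 and Atp2b1 at 33.5 ± 6.49. In colonic KO libraries the levels per kilobase were 873 ± 427, 77.5 ± 9.37 and 31.4 ± 8.38. The libraries of these 3 genes did not overlap in colon, so S100g stood above Vdr and Vdr above Atp2b1. In ileal control libraries the order per kilobase was Vdr at 42.1 ± 2.22, Atp2b1 at 34.7 ± 5.28 and S100g at 29.5 ± 7.91, with neighbours overlapping. In ileal KO libraries Vdr was at 47.5 ± 3.45, Atp2b1 at 41.8 ± 7.35 and S100g at 41.5 ± 38.3 CPM per kilobase, also overlapping. The ileal order depends on the length used. Full lengths were taken with no correction for fragment size, which may set the level of the short S100g transcript (480 bases) too low. The place of S100g in the ileal order is therefore not settled. Against the longest transcript, Atp2b1 was at 74.1 and Vdr at 54.5 CPM per kilobase in ileal control libraries, with Atp2b1 the higher. Trpv6, Casr and Cyp24a1 were below 0.3 CPM per kilobase in every library.

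Within colon, S100g was also the most variable of the 3 tested genes. Its coefficient of variation was 63.0% in colonic control and 48.9% in colonic KO libraries, against 16.8% and 12.1% for Vdr and 19.4% and 26.7% for Atp2b1. The colonic libraries ranked by S100g ran control 1, control 2, KO 2, KO 1, control 3 and KO 3. Slc30a10, a manganese exporter and another known target of the vitamin D receptor, was at 297, 227 and 174 CPM in colonic control and 163, 296 and 176 CPM in colonic KO libraries. The 3 colonic libraries highest in S100g were thus the 3 highest in Slc30a10. For Vdr the 3 highest were another set, with colonic control replicate 2 at rank 5. In ileum KO replicate 2 was highest in both S100g and Slc30a10, with 68.6 CPM of Slc30a10 against 33.4 to 49.0 CPM in the other 5. That library was also the highest in ileum for Atp2b1, Slc26a3, Aqp8 and Trpv6. It was not the highest for the sum of the 4 colonocyte markers, at 462 CPM against 575 CPM in ileal control replicate 2. Ileal control replicate 1 was at rank 2 for S100g and rank 4 for Slc30a10. Whether S100g and Slc30a10 are controlled together was not tested.

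By the root mean square difference of log2 CPM, each gene centred on its mean over the 12 libraries, the pattern of S100g was closest to those of 2610528A11Rik (0.50) and Ncoa7 (0.54) among 16557 other genes. 2610528A11Rik was at 13.8 to 50.3 CPM in ileum and 566 to 1071 CPM in colon. The genes closest to Vdr were Dmac2 (0.10) and Lrrc56 (0.10), at 18.6 to 24.6 and 4.79 to 6.86 CPM in ileum and 29.2 to 38.9 and 7.43 to 11.02 CPM in colon. Atp2b1 was followed most closely by Igsf3 (0.19) and Cep57l1 (0.19), which differed little between the tissues. Slc30a10 ranked 268 by closeness to S100g, and Vdr ranked 2484.

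Of 35 further genes of calcium, phosphate and vitamin D handling in 9 groups, 27 passed the filter on low counts. In control mice 4 were called higher and 7 lower in colon (40.7% of those tested), with a median log2 fold change of -0.02 beside 0.02 for all genes. In KO mice 5 were higher and 8 lower (48.1%), with a median of 0.21 beside 0.01. These shares are somewhat above the 35.9% and 37.1% of all genes, and nothing is read from that difference. The direction of the calls depends on the scaling, with 11 higher and 6 lower in control and 11 higher and 5 lower in KO mice when libraries were scaled to epithelial markers, and 7 higher and 7 lower in KO mice with library size alone.

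**Figure D4:**
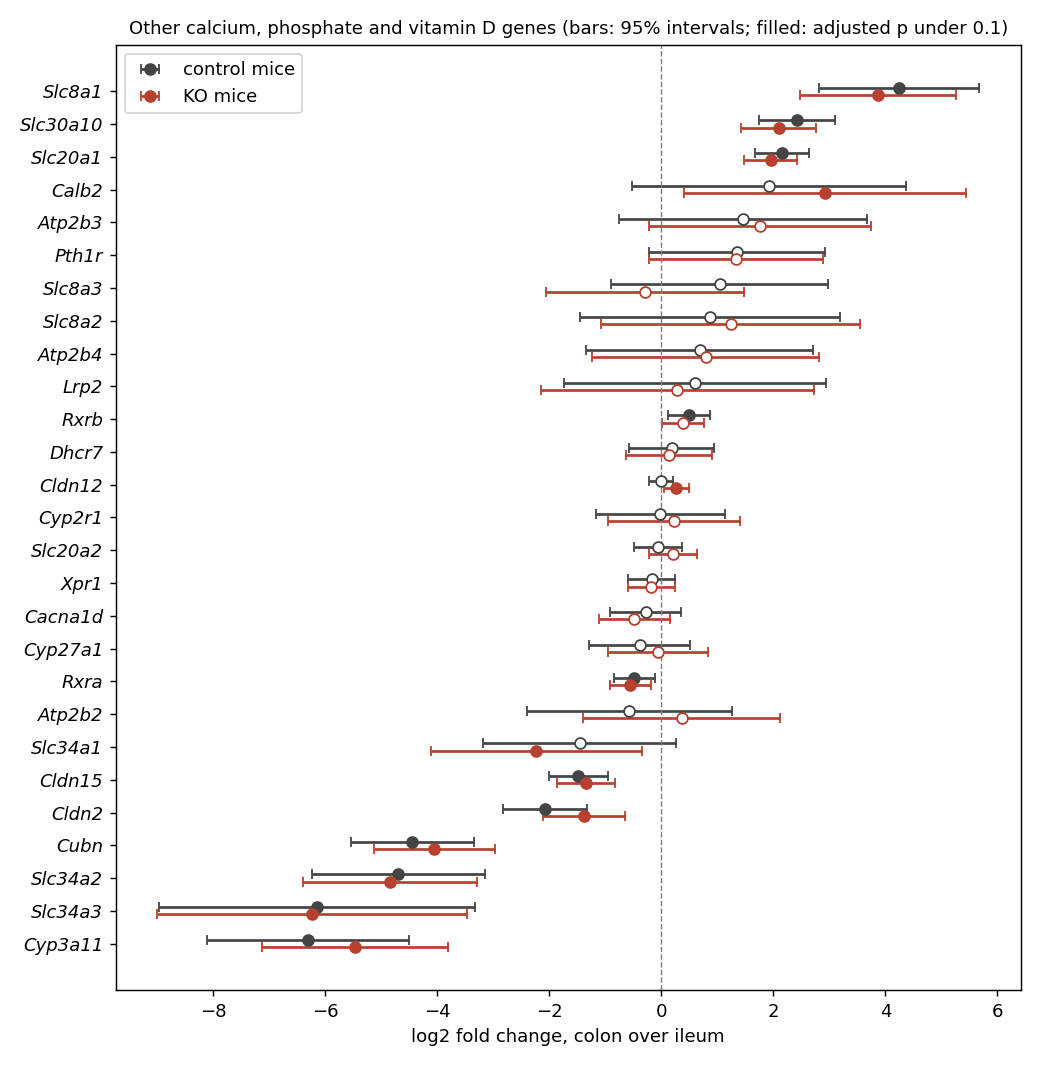
Log2 fold change of colon over ileum, with 95% intervals derived from the edgeR test, for the 27 tested genes of calcium, phosphate and vitamin D handling other than the 6 described, in control and KO mice. Filled points have an adjusted p under 0.1. Slc8a1, Slc30a10 and Slc20a1 stand to the right and Cyp3a11, Slc34a3, Slc34a2 and Cubn to the left in both genotypes. Slc34a3 had no counts in any colonic library, so its position is not read as a fold change.

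Among the other genes for calcium export, the sodium-calcium exchanger Slc8a1 was the 1 of 6 called, where 35.9% of all genes were called in control and 37.1% in KO mice. Slc8a1 was higher in colon. It was at 2.79, 2.44 and 0.637 CPM in ileal control and 0.417, 4.42 and 1.90 CPM in ileal KO libraries, against 28.5 to 42.1 CPM in colon. Its log2 fold change was 4.24 (adjusted p = 5.7e-04 in edgeR) in control and 3.86 (adjusted p = 8.9e-04) in KO mice. The KO value was 4.81 without ileal KO replicate 2. Its lowest ileal values were those of the 2 libraries low in muscle transcripts. Of the calcium-binding proteins, Calb2 was called higher in colon in KO mice (log2 fold change 2.92, adjusted p = 0.079) and not in control mice (1.92, adjusted p = 0.227), and it was at 0 CPM in the same 2 ileal libraries. The Calb2 call in KO mice was lost without ileal KO replicate 1 or 2, colonic control replicate 2, or any 1 of the colonic KO libraries (log2 fold changes 2.37 to 3.03), and without ileal KO replicate 3 the value was 3.64. The difference between genotypes was not called. Calb1 held at most 6 counts in any library, and Trpv5, the renal relative of Trpv6, held none.

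Of 6 phosphate transporters tested, 1 was called higher and 2 lower in colon in control mice, and 1 higher and 3 lower in KO mice. Of all genes, 35.9% were called in either direction in control and 37.1% in KO mice, and nothing is read from these counts. The sodium-phosphate cotransporter Slc34a2, which serves absorption at the brush border, was lower in colon, at 211 to 834 CPM in ileal control and 6.81 to 27.7 CPM in colonic control libraries, with a log2 fold change of -4.70 (adjusted p = 4.6e-04 in edgeR). In KO mice it was at 340 to 414 CPM in ileum and 4.10 to 19.0 CPM in colon (log2 fold change -4.85, adjusted p = 4.0e-04). Without ileal control replicate 1 the value in control mice was -4.04. Slc34a3 held 2 to 12 counts in ileal libraries and 0 in every colonic library, was called lower in both genotypes, and is given no fold change. Slc20a1, a cotransporter of a different family, was higher in colon, at 159 to 169 CPM in colonic control against 29.5 to 47.6 CPM in ileal control libraries (log2 fold change 2.16, adjusted p = 2.6e-05), and by 1.95 on the log2 scale in KO mice. Its relative Slc20a2 was not called, with log2 fold changes of -0.06 in control and 0.21 in KO mice.

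The 2 genes that were listed as other vitamin D receptor targets moved in opposite directions. Slc30a10 was higher in colon, with a log2 fold change of 2.42 (adjusted p = 1.5e-04 in edgeR) in control and 2.10 (adjusted p = 3.9e-04) in KO mice. Cyp3a11, a drug- and bile acid-metabolizing enzyme, was lower in colon, with 8.83 to 54.2 CPM in ileal control and 0.144 to 0.800 CPM in colonic control libraries (log2 fold change -6.31, adjusted p = 1.7e-04) and a log2 fold change of -5.48 in KO mice. Without colonic control replicate 3 the control value was -7.14, and without ileal KO replicate 1 the KO value was -4.78. Of the receptor partners, Rxra was called lower in colon in both genotypes (log2 fold change -0.48 and -0.56), but scaled to epithelial markers it turned to 0.20 and 0.14 and was not called. Rxrb was called higher in control mice (0.50, and 0.38 with adjusted p = 0.120 in KO mice). The Rxra call was lost without ileal control replicate 3 (-0.35) or colonic control replicate 1 or 2 (-0.46 and -0.45) in control mice, and without ileal KO replicate 1 (-0.42) or colonic KO replicate 2 (-0.48) in KO mice. The Rxrb call was lost without ileal control replicate 1 or 2 or colonic control replicate 2 or 3 (0.37 to 0.47). Cubn, part of the receptor complex that takes up vitamin D with its carrier protein, was lower in colon by a log2 fold change of -4.45 in control and -4.05 in KO mice. Its ileal level was 1151 and 1079 CPM in the 2 libraries low in muscle transcripts against 345.6 to 506.5 CPM in the other 4, and without ileal control replicate 3 the control value was -3.80. The pore-forming claudins of the paracellular route, Cldn2 and Cldn15, were lower too, with -2.08 and -1.48 in control mice. Cldn12 was called in KO mice (0.27), and so was Slc34a1 (-2.23). The Cldn12 call was lost without any 1 of the 6 KO libraries (0.24 to 0.30), and that of Slc34a1 without any of them but ileal KO replicate 2 (-2.70 to -1.79). Rxra, Rxrb, Cubn, Cldn2, Cldn15, Cldn12 and Slc34a1 were named after their values were seen.

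The loss of Slc39a8 was set against the 6 genes in each tissue and over both. For none of the 3 tested genes did KO and control libraries separate in either tissue, where 3.70% of all genes were separated in ileum and 12.8% in colon. Over both tissues the log2 fold change of KO over control was 0.06 (95% interval -0.17 to 0.28) for Vdr, -0.22 (-1.28 to 0.84) for S100g and 0.09 (-0.26 to 0.43) for Atp2b1, each with adjusted p = 0.998 in edgeR. The interval for Vdr spans 0.889 to 1.22 times the control level, and that for S100g spans 0.413 to 1.79 times. Changes within these spans are not excluded. The spans are not limits of detection, and larger changes could also go uncalled.

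Within ileum the fitted log2 difference of S100g was 0.50 (standard error 0.65), which turned to -0.60 without ileal KO replicate 2. Within colon it was -0.90 (standard error 0.64, 95% interval -2.29 to 0.49), with the mean of KO libraries at 53.6% of the control mean. Its exact permutation p was 0.3 in colon and 0.56 over both tissues. Vdr had a log2 fold change of 0.17 in ileum and -0.06 in colon, each about as large as its standard error of 0.15 or smaller, and Atp2b1 one of 0.27 and -0.09 with standard errors of 0.22. Trpv6, Cyp24a1 and Casr were not called in the unfiltered fit in edgeR or in DESeq2 in either tissue.

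In edgeR 0 of the 3 tested genes, 0 of the 27 list genes and 0 of all 16558 genes were called between the genotypes in ileum, in colon or over both tissues. At an unadjusted p under 0.05 there were 0 of the 3 tested genes, while 1.52% of all genes passed in ileum, 2.33% in colon and 3.87% over both. Of the list, Cldn12 passed that level in ileum and Cldn2 in colon. DESeq2 called 4 of all genes over both tissues, 2 in ileum and 0 in colon, and limma-voom 1, 1 and 0, and neither called any of the 6 genes or of the list. When the genotype effects of both tissues were tested against each other, edgeR called 0 genes, with 1.02% at an unadjusted p under 0.05, limma-voom called 0 and DESeq2 called 1, which was none of these.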

How the data were processed

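RNA of ileal and colonic mucosa was reverse transcribed with oligo-dT and sequenced as 150-base read pairs. The authors aligned reads to mm10 with STAR and deposited expected counts per gene, not normalized. The study names UMI-tools and featureCounts for counting uniquely mapped reads, but not all of the deposited estimated counts are whole numbers, so which tool made them stays unknown here. Of 53807 lines, 92 spike-in lines (0 counts) were left out. Counts were rounded and filtered with filterByExpr (16558 genes kept). edgeR 4.0.16 in R 4.3.3 (TMM, glmQLFit, glmQLFTest) was fitted over all 12 libraries in 1 model of the 4 groups, or with tissue as a term for genotype over both tissues. P-values were adjusted over all genes tested by the Benjamini-Hochberg method, with a threshold of 0.1. Depth of 16749138 to 27903083 limits low genes to about 3 counts per library. Alternatives included DESeq2 1.42.0 and limma 3.58.1 (voom), other scalings and filters, and each library left out. For the fold changes of list genes these were added after the data were seen. The steps were tested on simulated data. Coordinates are from GENCODE M21 and promoters from RefSeq tables. Figures used matplotlib 3.10.9.

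The 6 genes, the list of 35 and the tests were chosen with earlier results of these data known. Named were the 6 genes, Slc39a8, in each comparison the 3 called list genes with the largest rise and the 3 with the largest fall, every list gene called between genotypes, the 2 genes closest in pattern to each tested gene, and up to 3 markers per list where they bear on a result. Outside this rule, all 4 colonocyte markers and the overlapping genes Ctps2 and Pfdn4 were named. So were Calb1, Trpv5, Slc20a2 and Slc8a2, and the genes said to be chosen after their values were seen. The marker lists were epithelium, ileal enterocyte, colonocyte, proximal small intestine, smooth muscle, neuron and glia, plasma cell, T and B cell, macrophage, endothelium and enteroendocrine cells.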

Additional observations from a re-analysis of the deposited data

How the results depend on the processing

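S100g and Vdr were called higher in colon in both genotypes under every alternative, with log2 fold changes of 5.25 to 6.46 and 0.80 to 1.61 in control mice and 3.91 to 5.48 and 0.60 to 1.41 in KO mice. The highest S100g value in KO mice came without ileal KO replicate 2. The list count in control mice moved from 11 to 17 genes with scaling to epithelial markers. Without 1 library it lay between 9 and 12, and between 9 and 15 in KO mice.

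The sign of small effects turned. For the tissue effect of Atp2b1 in control mice the value was 0.048 with upper-quartile factors, 0.16 with library size, 0.61 with epithelial scaling and 0.052 without the 2 ileal libraries low in muscle, and -0.24 to 0.058 without 1 library. It was 0.32 in KO mice with epithelial scaling. For genotype over both tissues, epithelial scaling gave -0.078 for Vdr and -0.035 for Atp2b1, and S100g ran from -0.77 to 0.10 without 1 library. S100g in ileum ran from -0.60 to 0.89 without 1 library. In colon, library size gave 0.053 for Vdr and 0.012 for Atp2b1, and without 1 library they ran from -0.17 to 0.084 and from -0.30 to 0.087. None of these was called, except Atp2b1 in control mice with epithelial scaling. Of the list genes called between the tissues, Rxra turned with epithelial scaling, to 0.20 in control and 0.14 in KO mice, and was not called there. It was also not called with library size, Calb2 not in DESeq2, Slc34a1 not in limma-voom or with epithelial scaling, Cldn12 not without the filter and Cldn2 in KO mice not with epithelial scaling. The alternatives on these genes' fold changes were chosen after seeing the data. The causes were not tested.

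With the replicate number as a block, S100g had tissue effects of 5.55 and 4.55 and Vdr of 0.92 and 0.70, and the list counts were 11 and 11. Each block held all libraries of 1 number, of both tissues and genotypes, so it does not test pairing of tissues within a mouse. No call of the 6 genes changed. Of the list, Calb2 and Cldn12 lost their calls in KO mice under the block. The libraries were not taken as paired, since the labels give no shared mouse and not every same-numbered pair correlated above 0.1. Between ileum and colon of 1 genotype, same-numbered libraries correlated at -0.08 to 0.16 in control and 0.051 to 0.25 in KO mice, and 2 of 6 control and 5 of 6 KO libraries correlated best with their own number. Depth limits Trpv6, Cyp24a1 and Casr, which had at most 16 counts in a library. Colonic KO libraries with 0 counts of a gene allow 0.1245 to 0.1554 CPM.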

Other observations

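Of the marker lists not used above, in control mice 2 of 3 enteroendocrine markers were called higher in colon, led by Chga at 134 to 187 CPM against 21.9 to 59.3 CPM in ileum, and 2 of 4 plasma cell and 2 of 4 T and B cell markers were called lower, where 35.9% of all genes were called in either direction. In KO mice, with 37.1% of all genes called, 3 of 3 enteroendocrine markers were higher. There 3 of 4 plasma cell and 3 of 4 T and B cell markers were lower. Their summed levels in control libraries were 318 to 408 CPM in colon and 57.3 to 180 CPM in ileum for enteroendocrine cells, 224 to 306 and 283 to 1436 CPM for plasma cells, and 6.61 to 8.29 and 25.9 to 31.7 CPM for T and B cells. Of 3 macrophage markers 1 was lower in each genotype. Of enteric neuron and glia markers 0 of 4 were called in control and 3 of 4 were higher in colon in KO mice, and of 2 endothelial markers 0 and 1, where 37.1% of all genes were called in KO mice. No smooth muscle or proximal small intestine marker was called in either genotype. The 2 proximal small intestine markers summed to at most 3.03 CPM in any library.

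Atp2b4, a relative of Atp2b1 that was chosen after its values were seen, was at 1.87 and 2.33 CPM in the 2 ileal libraries low in muscle transcripts, against 30.6 to 42.2 CPM in the remaining 4 from ileum. Atp2b1 was at 616 and 541 CPM in those 2, against 458 to 759 CPM in the remaining 4. Slc8a2 was at 0.042 and 0 CPM in the 2, against 1.06 to 2.23 CPM.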
